A study of Mus musculus with 9 samples.

Results

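Chemokine receptors are cell surface receptors with which white blood cells read gradients of chemokines, and 9 genes of this family were followed here: Cxcr4, Ccr2, Ccr1, Cx3cr1, Cxcr2, Ccrl2, Ccr7, Cxcr3 and Cmklr1. They were chosen by name, as receptors for chemokines or for the attractant chemerin, from the 55536 genes of the expression table. Earlier results of these data were known when they were chosen. All 9 had a row in the table.

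The libraries came from a mouse model of acute myeloid leukemia (AML) driven by the MLL-AF9 fusion gene, in which GFP+ leukemia cells (1000000 per mouse) were given to C57BL/6J recipients aged 6 to 8 weeks, none of them irradiated. Leukemia cells were sorted from bone marrow at day 18, and RNA-seq was run on 3 groups of 3 libraries each: WT c-kit- cells, WT c-kit+ cells (both with the genotype tag control-GFP overexpression) and IRF7-/- c-kit+ cells (genotype tag IRF7-/--GFP overexpression), shown in the plots with the prefix AML. The stem cell factor receptor c-kit was used to divide the blast population, and leukemia-initiating cells are reported to be concentrated among c-kit+ cells in this model. No c-kit- group was sequenced for the IRF7-/- leukemia, the hosts kept their own blood system, and no label says whether libraries of a group came from different mice or whether each leukemia arose more than once, so p-values measure the spread between libraries only. Leukemia genotype and leukemia origin cannot be told apart.

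Chemokine receptors are G protein-coupled receptors that mostly signal through inhibitory Gi proteins to phosphoinositide 3-kinase and small GTPases, and after activation they are silenced by receptor kinases and arrestins. Cxcr4 and its ligand Cxcl12 hold blood stem cells and immature leukocytes in the bone marrow, and Cxcr2 draws neutrophils out of it. Ccr2 is needed for inflammatory monocytes to leave the marrow, Cx3cr1 marks monocytes and macrophages, and Ccr7 and Cxcr3 guide dendritic cells and activated lymphocytes.

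Values are in TPM, a transcript abundance that is divided by transcript length and scaled to one fixed total per library, so levels of different receptors can be compared. Library totals of 987468 to 992231 TPM carry no information on sequencing depth, which is unknown. Log2 fold changes were fitted with limma on log2(TPM + 1), for genes that reached 1 TPM in 3 or more of the 6 libraries compared. A gene was called changed if its Benjamini-Hochberg adjusted p was under 0.05 and its log2 fold change was 1 or more in size. Kit matched the sort, at 0.52 to 3.03 TPM in c-kit- libraries, 50.7 to 58.5 TPM in WT c-kit+ libraries and 70.3 to 85.7 TPM in the IRF7-/- c-kit+ group. Each of 7 genes listed for this leukemia (Kit, Hoxa9, Hoxa10, Meis1, Itgam, Ly6c2 and Cd34) reached 1 TPM in at least 1 library of every group. Irf7 did not follow the genotype label: it stood at 5.31, 3.91 and 3.36 TPM in WT c-kit+ libraries and at 12.81, 5.97 and 7.95 TPM in the libraries labelled IRF7-/-. Irf7 was therefore higher, not lower, under the knockout label (log2 fold change 0.89, SE 0.27, limma adjusted p = 0.0321), and the directions given below for those libraries take the label as it stands. The knockout allele is described as replacing exons 2 and 3, and the table does not separate exons.

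Cxcr4 made up most of the summed transcripts of these 9 receptors in c-kit+ cells, while Ccr2 and Cx3cr1 held larger shares in c-kit- cells. The mean of Cxcr4 itself was lower in WT c-kit+ cells (215 TPM) than in c-kit- cells (407 TPM). The 9 receptors together reached 898 ± 94.0 TPM (SD, n = 3) in WT c-kit- cells, 265 ± 40.5 TPM (SD, n = 3) in WT c-kit+ cells and 349 ± 25.002 TPM (SD, n = 3) under the IRF7-/- label. Cxcr4 made up 45.4% ± 5.90 (SD, n = 3) of that sum in c-kit- cells, 80.9% ± 3.27 (SD, n = 3) in WT c-kit+ cells and 80.8% ± 0.952 (SD, n = 3) in the labelled IRF7-/- libraries. The remainder changed its make-up. Ccr2 held 30.6%, 7.20% and 8.34% of the sum in the same order of groups, Cx3cr1 held 14.1%, 4.41% and 0.715%, and Ccr1 held 7.71%, 2.61% and 9.02%. After Cxcr4 came Ccr2, Cx3cr1 and then Ccr1 in c-kit- cells, whereas Ccr1 and Ccr2 followed side by side in the labelled libraries.

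**Figure D1:**
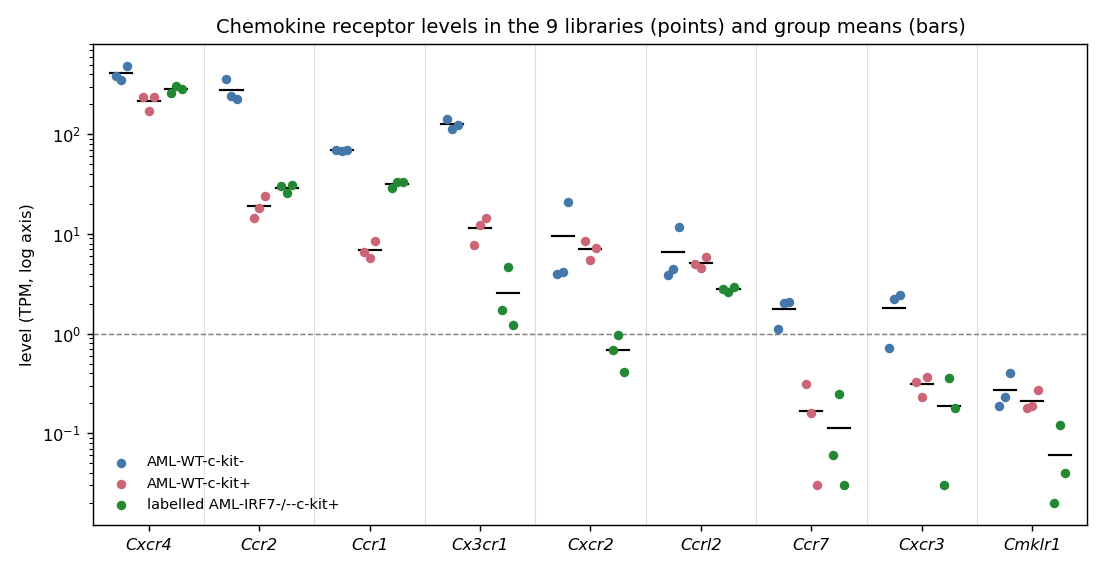
Level of each receptor in TPM (log axis) in the 9 libraries, one point per library coloured by group, with black bars for group means and a dashed line at 1 TPM. Ccr2, Ccr1 and Cx3cr1 stood far higher in the WT c-kit- libraries than in the WT c-kit+ libraries, and Cmklr1 stayed under 1 TPM in all 9.

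**Figure D2:**
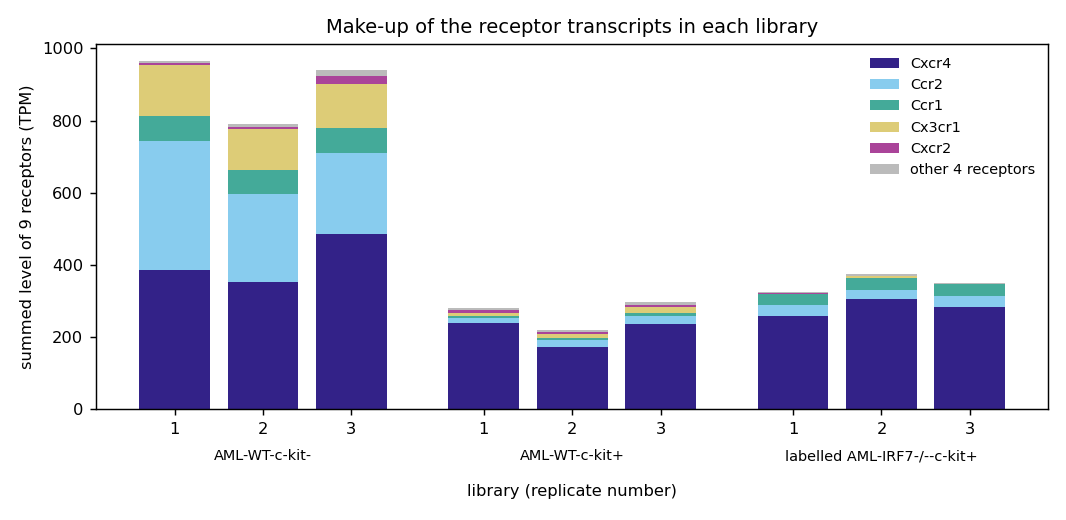
Stacked bars from 0 give the summed TPM of the 9 receptors in each of the 9 libraries, divided by receptor. Cxcr4 filled 39.9 to 51.6% of the bar in WT c-kit- libraries and 78.6 to 84.7% in WT c-kit+ libraries.

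The promoter letters of the 4 most abundant receptors are shown because these genes carry most of the sum and most of the differences; the 4 were chosen after their values were seen. Each is the RefSeq window (GRCm38.p6) from 250 bases before the annotated start to 50 after it. It is written 5′ to 3′ on the strand of the gene, with CG pairs in capitals. Gene positions in this report come from another annotation, GENCODE M21, whose gene models can begin further upstream. The Ccr2 window lies almost wholly, and the Cx3cr1 window wholly, inside its GENCODE model. The windows are chr1:128592250-128592549 (minus strand) for Cxcr4, chr9:124101933-124102232 (plus strand) for Ccr2, chr9:123968643-123968942 (minus strand) for Ccr1 and chr9:120068247-120068546 (minus strand) for Cx3cr1.
Cxcr4: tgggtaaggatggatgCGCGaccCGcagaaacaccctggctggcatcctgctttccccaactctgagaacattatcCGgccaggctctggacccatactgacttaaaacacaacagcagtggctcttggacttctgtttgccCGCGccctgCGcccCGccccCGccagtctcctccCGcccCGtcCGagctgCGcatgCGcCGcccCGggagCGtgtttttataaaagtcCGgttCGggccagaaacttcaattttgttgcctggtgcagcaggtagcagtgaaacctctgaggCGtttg
Ccr2: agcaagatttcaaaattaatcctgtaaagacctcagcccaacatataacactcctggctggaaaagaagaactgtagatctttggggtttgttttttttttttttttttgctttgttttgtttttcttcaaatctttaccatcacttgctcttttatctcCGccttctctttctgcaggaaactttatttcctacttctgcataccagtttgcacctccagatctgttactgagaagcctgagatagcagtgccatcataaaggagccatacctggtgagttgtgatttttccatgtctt
Ccr1: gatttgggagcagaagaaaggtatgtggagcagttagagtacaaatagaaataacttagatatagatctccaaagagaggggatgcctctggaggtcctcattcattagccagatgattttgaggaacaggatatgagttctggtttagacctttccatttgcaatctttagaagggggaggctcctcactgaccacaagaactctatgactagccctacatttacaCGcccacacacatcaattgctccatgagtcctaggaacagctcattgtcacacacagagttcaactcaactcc
Cx3cr1: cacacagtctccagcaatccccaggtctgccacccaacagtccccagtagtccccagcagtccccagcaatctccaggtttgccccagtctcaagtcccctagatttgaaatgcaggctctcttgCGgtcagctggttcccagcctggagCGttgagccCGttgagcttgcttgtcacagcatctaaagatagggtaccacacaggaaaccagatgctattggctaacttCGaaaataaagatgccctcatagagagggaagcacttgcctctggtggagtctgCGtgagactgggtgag

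Cxcr4, the receptor abundant in all 3 groups, had 20 CG pairs and 59.3% G + C in its window, and 24.8% of the 32851 mouse windows of this length held more CG pairs. Ccr2 and Ccr1 had 1 CG pair each, with 38% and 44% G + C, and 5.43% of all windows held fewer. Cx3cr1 had 5 CG pairs, and the median window had 7. The 4 motifs below were searched on both strands in the windows of the 8 receptors that had one, Ccr7 having none in the table. The interferon-stimulated response element, searched as GAAA repeated after a gap of 2 bases and held by 3.44% of all windows, and the C/EBP motif TTGCNNAA, which 10.8% held, matched no receptor window. The PU.1 motif GAGGAAGT, present in 3.20% of all windows, matched only that of Cxcr3. TATAAA, present in 13.6% of all windows, matched only Cxcr4, where a match on each strand overlapped the other and the pair began 32 and 30 bases before the start. The window of Cmklr1 and a window of Ccrl2 also lie wholly inside their GENCODE models. A match or its absence describes these letters and no more.

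The monocyte receptors Ccr2, Ccr1 and Cx3cr1 separated c-kit- from c-kit+ cells of the WT leukemia. Ccr2 (ENSMUSG00000049103, chr9:124101950-124113557, GRCm38), the receptor for Ccl2, was at 358.56, 243.43 and 224.34 TPM in WT c-kit- libraries and at 14.52, 18.10 and 24.26 TPM in WT c-kit+ libraries. The lowest c-kit- library lay far above the highest c-kit+ library. The mean was 14.5-fold lower in c-kit+ cells, with a log2 fold change of -3.79 (SE 0.23, 95% interval -4.34 to -3.24, limma adjusted p = 5.26e-05). By size of change it ranked 48th of the 13261 genes tested.

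Cx3cr1 (ENSMUSG00000052336), the receptor for the membrane-bound chemokine Cx3cl1, was at 141.21, 113.46 and 124.07 TPM in c-kit- libraries and at 7.70, 12.39 and 14.37 TPM in WT c-kit+ libraries. It was 10.99-fold lower in c-kit+ cells, again with no overlap (log2 fold change -3.38, SE 0.21, limma adjusted p = 5.72e-05). Ccr1 (ENSMUSG00000025804, chr9:123962124-123968692), a receptor for Ccl3, Ccl6 and Ccl9 among others, was nearly constant among the c-kit- libraries at 69.82, 67.64 and 68.90 TPM. In the WT c-kit+ libraries it was at 6.63, 5.79 and 8.40 TPM, 9.91-fold lower (log2 fold change -3.15, SE 0.12, limma adjusted p = 1.48e-05). In bulk libraries such as these, fewer cells of a type and less RNA per cell cannot be told apart. The summed level of 6 other monocyte markers (Ly6c2, Csf1r, Fn1, F13a1, Ms4a4c and Klf4), read in the same sorted leukemia cells, moved with these receptors. It was 4955 to 6323 TPM in c-kit- libraries and 2094 to 2435 TPM in WT c-kit+ libraries, most of it Ly6c2. Ly6c2 was at 2783 to 3193 TPM and at 1882 to 2096 TPM, and Fn1 at 642 to 1058 TPM and at 9.54 to 25.3 TPM. All 6 were lower in every WT c-kit+ library than in any c-kit- library. Their part in the result was not tested.

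Cxcr4 (ENSMUSG00000045382, chr1:128588199-128592293), the receptor for Cxcl12, differed much less. It was at 384.65, 352.74 and 484.92 TPM in c-kit- libraries and at 237.99, 172.56 and 235.06 TPM in WT c-kit+ libraries, so all 3 c-kit+ libraries were lower and the groups did not overlap. The log2 fold change of -0.92 (SE 0.17, 95% interval -1.31 to -0.52, limma adjusted p = 0.00468) did not reach the size threshold, and it did so, at -1.02 with an adjusted p of 0.00890, when c-kit- library 2 was left out. Among all genes, Cxcr4 ranked 351st by mean level in c-kit- cells and 566th in WT c-kit+ cells, whereas Ccr2 ranked 498th and 6227th.

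Cxcr2 (ENSMUSG00000026180, chr1:74153989-74161246), the receptor with which neutrophils follow Cxcl1 and Cxcl2, and Ccrl2 (ENSMUSG00000043953, chr9:111054486-111057519), an atypical receptor that binds chemerin without classical signalling, gave no difference in WT cells. Cxcr2 was at 4.0, 4.13 and 20.73 TPM in c-kit- libraries and at 8.44, 5.48 and 7.22 TPM in WT c-kit+ libraries. Ccrl2 was at 3.88, 4.47 and 11.61 TPM and at 5.0, 4.56 and 5.89 TPM. In both genes c-kit- library 3 was the highest of the 6, the other c-kit- libraries were the lowest, and the c-kit+ libraries lay between. The log2 fold change was -0.05 for Cxcr2 (95% interval -1.40 to 1.30, limma adjusted p = 0.953) and -0.18 for Ccrl2 (95% interval -1.04 to 0.67, limma adjusted p = 0.716). These intervals leave room for changes past the threshold on either side for Cxcr2 and on the lower side for Ccrl2. Without c-kit- library 3 both signs turned, to 0.65 for Cxcr2 (limma adjusted p = 0.0404) and 0.25 for Ccrl2 (adjusted p = 0.258), and the sign for Cxcr2 also turned under quantile normalization, under median centring and without c-kit+ library 2.

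The remaining 3 receptors had low levels. Ccr7 (ENSMUSG00000037944, chr11:99144196-99155077), which guides dendritic and T cells to lymph nodes, was at 1.11, 2.05 and 2.08 TPM in c-kit- libraries and at 0.31, 0.16 and 0.03 TPM in WT c-kit+ libraries. It passed the filter only through the c-kit- libraries and so had to differ, with a log2 fold change of -1.22 (SE 0.21, limma adjusted p = 0.00387). Cxcr3 (ENSMUSG00000050232, chrX:101731535-101734269), the receptor for Cxcl9 and Cxcl10, was at 0.72, 2.22 and 2.43 TPM and at 0.33, 0.23 and 0.37 TPM. Cmklr1 (ENSMUSG00000042190, chr5:113612354-113650426), the signalling receptor for chemerin, was at 0.19, 0.23 and 0.40 TPM and at 0.18, 0.19 and 0.27 TPM. Cxcr3 and Cmklr1 did not pass the filter. Without a filter, neither passed the test (adjusted p = 0.0550 and 0.614). Of 10 T and NK cell markers, 9 were under 1 TPM in all 3 c-kit- libraries, where Cxcr3 was highest. Dendritic cell markers other than Ccr7 summed to 73.4 to 116 TPM in c-kit- libraries against 9.76 to 23.1 TPM in WT c-kit+ libraries, most of it Flt3 and Cd209a, and their part in the Ccr7 values was not tested.

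In all, 7 of the 9 receptors were tested in WT c-kit+ against WT c-kit- cells, of which 4 were lower (Ccr2, Cx3cr1, Ccr1 and Ccr7) and 0 were higher. Of all 13261 genes tested, 9.61% were called lower and 4.83% higher, 14.4% in either direction. The libraries did not overlap for 5 of the 7 receptors, against 54.4% of all genes, and 5 of the 7 passed the adjusted p alone, against 41.6%. Ccr7 is in each of these counts, though it entered only through the c-kit- libraries and could not overlap or be called higher. The median of all genes tested was -0.08, and relative to it the changes were -3.71 for Ccr2, -3.30 for Cx3cr1 and -3.07 for Ccr1. An exact two-sided permutation test of one gene cannot go below p = 0.1 with 3 libraries against 3, and it gave p = 0.1 for each receptor whose libraries did not overlap.

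**Figure D3:**
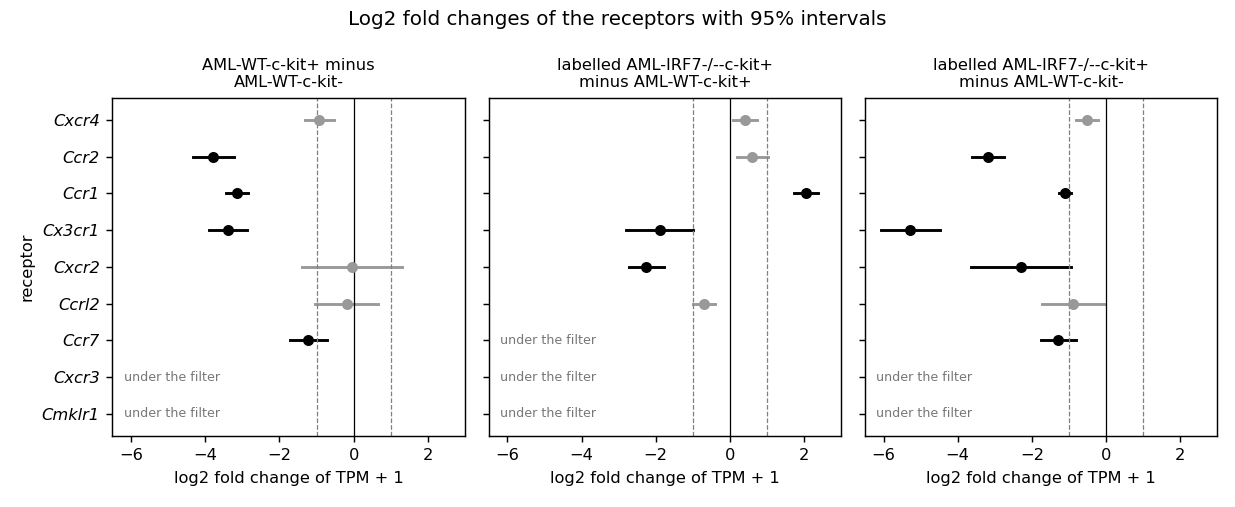
Log2 fold change of TPM + 1 (points) with its 95% interval from limma (lines) for each receptor in the 3 comparisons; black marks pass both thresholds, grey marks do not, dashed lines stand at -1 and 1, and the directions in the middle and right panels rest on the IRF7-/- label. Ccr1 lay at -3.15 in the left panel and 2.04 in the middle one, and Cx3cr1 at -3.38 and -1.90.

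Among c-kit+ cells, the libraries labelled IRF7-/- had more Ccr1 and less Cx3cr1 and Cxcr2 than WT c-kit+ libraries. Ccr1 was at 28.71, 32.98 and 32.80 TPM against 6.63, 5.79 and 8.40 TPM. All 3 labelled libraries lay above all 3 WT libraries, by 4.54-fold in the mean (log2 fold change 2.04, SE 0.13, limma adjusted p = 0.000114). Cx3cr1 was at 1.74, 4.69 and 1.23 TPM against 7.70, 12.39 and 14.37 TPM, which was 4.499-fold lower (log2 fold change -1.90, SE 0.38, 95% interval -2.80 to -0.99, limma adjusted p = 0.0070). Labelled library 2 was the highest of its group for Cx3cr1 and also had the most Flt3, a receptor of dendritic cell and early progenitors. Flt3 was at 56.87 TPM there, against 8.65 and 7.93 TPM. Of the other dendritic cell markers, Itgax was at 1.34, 1.23 and 2.09 TPM in labelled libraries 1, 2 and 3. Xcr1, Cd209a, Siglech and Zbtb46 were under 1 TPM in all 3. The part of any such progenitors in the Cx3cr1 values was not tested.

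Cxcr2 was at 0.68, 0.97 and 0.41 TPM in the labelled libraries against 8.44, 5.48 and 7.22 TPM in WT c-kit+ libraries, 10.3-fold lower in the mean (log2 fold change -2.25, SE 0.20, limma adjusted p = 0.000308). It passed the filter only through the WT c-kit+ libraries. Ccrl2 moved the same way and less, at 2.78, 2.59 and 2.96 TPM against 5.0, 4.56 and 5.89 TPM, with a log2 fold change of -0.70 (SE 0.13, limma adjusted p = 0.00490) that stayed inside the size threshold. Mature neutrophil genes moved with both. Ly6g, which encodes the surface marker of mouse neutrophils and heads the marker list, was at 45.4, 19.6 and 35.5 TPM in WT c-kit+ libraries and at 1.77, 0.65 and 1.15 TPM in the labelled libraries. In c-kit- libraries Ly6g was at 16.0, 11.4 and 65.0 TPM, so library 3, which was highest for Cxcr2 and Ccrl2, was highest for Ly6g too. The sum of 9 neutrophil markers without Cxcr2 was 13687 to 25539 TPM in WT c-kit+ libraries and, in the labelled ones, 354 to 607 TPM, and it was 1322, 1702 and 6683 TPM in c-kit- libraries 1, 2 and 3. The sum is mostly the granule genes Camp and Ngp, which immature granulocytic cells also express. The part of neutrophil-lineage cells in the Cxcr2 and Ccrl2 values was not tested.

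**Figure D4:**
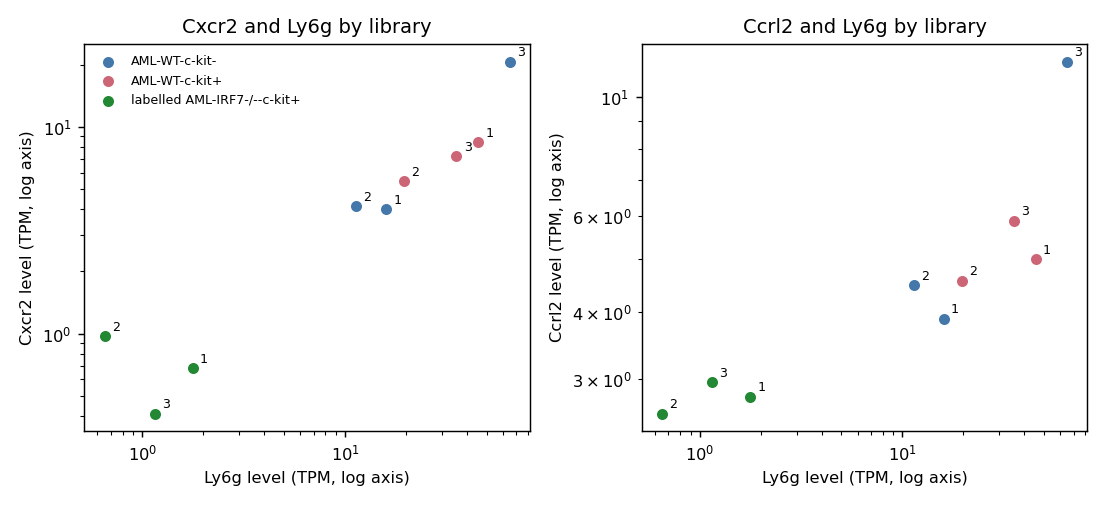
Cxcr2 (left) and Ccrl2 (right) against the neutrophil marker Ly6g, all in TPM on log axes, with one point per library numbered by replicate and coloured by group. c-kit- library 3 was highest on every axis (Ly6g 65.0, Cxcr2 20.73 and Ccrl2 11.61 TPM), and the 3 libraries labelled IRF7-/- were lowest.

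Ccr2 and Cxcr4 were slightly higher in the labelled libraries. Ccr2 was at 30.23, 25.57 and 30.91 TPM against 14.52, 18.10 and 24.26 TPM, with a log2 fold change of 0.61 (SE 0.18, limma adjusted p = 0.0298). Cxcr4 was at 259.29, 305.96 and 281.98 TPM against 237.99, 172.56 and 235.06 TPM, with a log2 fold change of 0.40 (SE 0.13, limma adjusted p = 0.0453). Neither group pair overlapped, neither change reached the size threshold, and over the alternative settings the adjusted p ran from 0.0082 to 0.0886 for Ccr2 and from 0.0405 to 0.123 for Cxcr4. Relative to the median of all genes tested, which was 0.12, they were 0.49 and 0.28. Ccr7 (0.06, 0.25 and 0.03 TPM), Cxcr3 (0.03, 0.36 and 0.18 TPM) and Cmklr1 (0.02, 0.12 and 0.04 TPM) were under the filter in the labelled libraries, and the WT c-kit+ libraries overlapped with them for Ccr7 and Cxcr3. Of the 6 receptors tested under the label, 1 was higher (Ccr1) and 2 were lower (Cx3cr1 and Cxcr2). Among all 13238 genes tested, 6.30% were higher and 5.39% lower, 11.7% in either direction. All 6 tested receptors had libraries that did not overlap, as did 59.1% of all genes, and all 6 passed the adjusted p alone, as did 48.0%. Cxcr2 is in these counts, though it entered only through the WT c-kit+ libraries and could not overlap or be called higher.

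Set against WT c-kit- cells, the libraries labelled IRF7-/- had lower levels of 5 of the 7 receptors tested, and 0 were higher. Of all 13510 genes tested, 11.9% were called lower and 8.40% higher, 20.3% in either direction. Libraries of 67.1% of genes did not overlap, as for all 7 receptors, and 59.4% of genes passed the adjusted p alone, as did 6 of the 7. The fall was largest for Cx3cr1, whose mean of 126 TPM in c-kit- cells was 49.4-fold above the 2.55 TPM of the labelled libraries (log2 fold change -5.28, SE 0.33, limma adjusted p = 3.42e-05). Ccr2 was 9.53-fold lower (-3.18, SE 0.18, adjusted p = 2.28e-05), and Cxcr2 was 14.0-fold lower with a wide error, c-kit- library 3 lying apart from the other two (-2.30, SE 0.56, adjusted p = 0.0114). Without that library the log2 fold change of Cxcr2 was -1.60 (SE 0.19, adjusted p = 0.00127). Ccr1 was only 2.18-fold lower (-1.11, SE 0.07, adjusted p = 3.75e-05), and Ccr7 gave -1.29 (SE 0.20, adjusted p = 0.00159). Cxcr2 and Ccr7 passed the filter here only through the c-kit- libraries, so neither could overlap or be called higher. Cxcr4 at -0.52 (SE 0.13, adjusted p = 0.0109) and Ccrl2 at -0.88 (SE 0.35, adjusted p = 0.0670) were not called, and Ccrl2 passed both thresholds when c-kit- library 1 was left out (-1.14, adjusted p = 0.0372). This comparison shares libraries with both others, and its groups differ in sort and in leukemia.

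The order of the group levels therefore differed between receptors. For Cxcr4, Ccr2 and Ccr1 it ran from c-kit- through the labelled IRF7-/- libraries to WT c-kit+, with no overlap between neighbours. For Cx3cr1 it ran from c-kit- through WT c-kit+ to the labelled libraries, also without overlap. For Cxcr2 and Ccrl2 the labelled libraries were lowest and the 2 WT groups overlapped. For Ccr7 and Cxcr3 the c-kit- libraries were highest and the 2 c-kit+ groups overlapped.

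Ratios between receptors within a library do not depend on how libraries are scaled, and they were formed after the levels were seen. The ratio of Ccr2 to Ccr1 was 3.26 to 5.14 in c-kit- libraries, 2.19 to 3.13 in WT c-kit+ libraries and, under the IRF7-/- label, 0.775 to 1.05. The WT cells thus held more Ccr2 than Ccr1 transcripts in every library, while the labelled libraries held about as much of one as of the other. The ratio of Cx3cr1 to Ccr2 was 0.394 to 0.553, 0.530 to 0.685 and 0.0398 to 0.183 in the same order.

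Ccr1 and Ccr2 lie in one cluster of receptor genes on chromosome 9, and several receptor genes near them were under 1 TPM. The receptors Ccr9, Cxcr6, Xcr1, Ccr1l1 and Ccr3 had group means under 1 TPM in all 3 groups. In Ccr2 transcripts, 1.91% of the 50-base words also occur in other genes, and reads from them cannot be assigned with certainty. The shares for the other receptors were 4.01% for Cxcr2, 0.269% for Cx3cr1, 0.150% for Cmklr1 and 0 for the rest. The gene model of Cx3cr1 (chr9:119901616-120069879, minus strand, GENCODE M21) spans 9 other annotated genes, and one of them, the antisense gene Gm33858, had 10.6 to 13.3 TPM in c-kit- libraries, 1.56 to 1.95 TPM in those of WT c-kit+ cells and 0 to 0.33 TPM in the labelled libraries. Protein-coding genes in that span were read too. Over the 9 libraries Wdr48 was at 39.1 to 47.5 TPM, Gorasp1 at 7.2 to 19.6 TPM, Ttc21a at 0.56 to 20.0 TPM and Csrnp1 at 5.7 to 42.8 TPM. The library kit named in the labels does not mark strand, so reads of Cx3cr1 and of genes on the other strand cannot be told apart where they overlap.

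**Figure D5:**
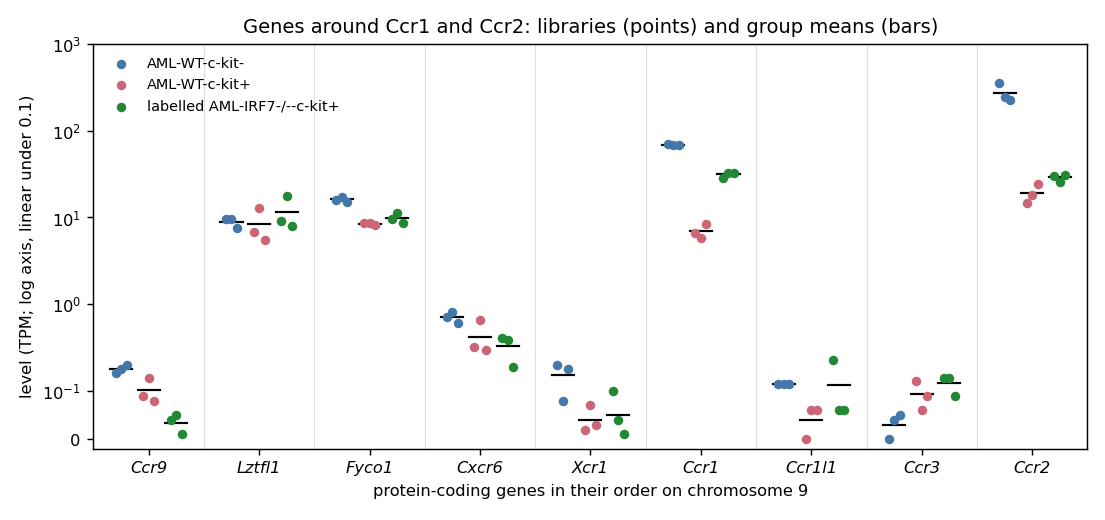
Levels in TPM (log axis, linear under 0.1) of protein-coding genes around Ccr1 and Ccr2 in their order on chromosome 9, with one point per library coloured by group and black bars for group means. Ccr1 and Ccr2 stood above the receptor genes Ccr9, Xcr1 and Ccr3, whose group means were under 1 TPM. Lztfl1 and Fyco1 had group means of 8.42 to 11.5 TPM and 8.48 to 16.2 TPM. In WT c-kit+ libraries both had a higher mean than Ccr1 (6.94 TPM).

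Other receptors for chemokines and leukocyte attractants moved in both directions between the WT groups. Of 25 such genes, 8 were tested in WT c-kit+ against WT c-kit- cells, with 2 higher and 2 lower and a median log2 fold change of -0.40. Ltb4r1, the high-affinity receptor for leukotriene B4, was higher in c-kit+ cells (mean 179 against 51.9 TPM, log2 fold change 1.83, limma adjusted p = 0.00247), as was the complement receptor C5ar2 (5.26 against 2.13 TPM, log2 fold change 1.04). The oxysterol receptor Gpr183 (7.74 against 41.1 TPM, log2 fold change -2.31) and the platelet-activating factor receptor Ptafr (10.5 against 34.4 TPM, log2 fold change -1.63) were lower. In the libraries labelled IRF7-/- against WT c-kit+, 7 of the 25 were tested, with 0 higher and 4 lower. Fpr2, a formyl peptide receptor of neutrophils and monocytes, fell furthest, from a mean of 62.8 to 0.870 TPM (log2 fold change -5.03, limma adjusted p = 6.57e-05), and the others were Fpr1, C5ar1 and C5ar2, with log2 fold changes of -1.95, -1.496 and -1.75. Against c-kit- cells, 5 of 7 were lower and 0 were higher. Beside these counts, 4.83% of all genes tested were called higher and 9.61% lower in WT c-kit+ against WT c-kit- cells. In the labelled libraries the shares were 6.30% and 5.39% against WT c-kit+ cells, and 8.40% and 11.9% against c-kit- cells. Fpr1 and C5ar2 in the comparison of c-kit+ cells, and Fpr1 against c-kit- cells, were under 1 TPM in every labelled library, so they entered the test only through the group where they were high and could only be called lower.

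Ligands of the 9 receptors were made by the leukemia cells as well. Of 24 listed, 9 were tested in WT c-kit+ against WT c-kit- cells, with 0 higher and 4 lower. The 4 were ligands of Ccr1 or Ccr2. Ccl6 fell from a mean of 179 to 8.11 TPM (log2 fold change -4.30, limma adjusted p = 8.94e-06), Ccl3 from 695 to 178 TPM (-1.98), Ccl9 from 283 to 77.4 TPM (-1.88) and Ccl2 from 7.30 to 0.257 TPM (-2.62). In the libraries labelled IRF7-/- against WT c-kit+, 3 of 9 were higher and 3 were lower. The Ccr1 ligand Ccl9 was higher (180 against 77.4 TPM, log2 fold change 1.24), together with Mif, a non-chemokine ligand of Cxcr4 and Cxcr2 (760 against 332 TPM, log2 fold change 1.21), and Cxcl10 (4.39 against 1.33 TPM, log2 fold change 1.16). Ccl3 (19.3 against 178 TPM, log2 fold change -3.05), Ccl4 (4.41 against 29.4 TPM, log2 fold change -2.36) and Cxcl2 (0.330 against 3.88 TPM, log2 fold change -1.92) were lower. Against c-kit- cells, 2 of 10 were higher and 5 were lower. Beside these counts, the shares of all genes were 4.83%, 6.30% and 8.40% higher and 9.61%, 5.39% and 11.9% lower in the 3 comparisons. Ccl2 against c-kit- cells in both comparisons, and Cxcl2 in both comparisons of the labelled libraries, likewise passed the filter only through the group where they were high. Cxcl12, the Cxcr4 ligand that marrow stroma is known to make, was at 0.05 to 0.51 TPM in the WT libraries and 1.2 to 1.6 TPM in the labelled libraries.

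The signalling machinery below the receptors was present in all groups. All 20 genes listed for signal transduction were tested in each comparison. In WT c-kit+ against WT c-kit- cells 1 was higher and 4 were lower. The G protein subunit Gng2 (45.3 against 250.5 TPM, log2 fold change -2.46), the Rac exchange factor Prex1 (32.5 against 121 TPM, log2 fold change -1.87), the kinase adaptor Pik3r6 (15.9 against 60.7 TPM, log2 fold change -1.87) and the kinase Lyn (74.6 against 192 TPM, log2 fold change -1.36) were lower, and the phospholipase Plcb2 was higher (214 against 68.7 TPM, log2 fold change 1.64). Under the IRF7-/- label, 0 were higher and 2 were lower than in WT c-kit+ cells, the kinase Fgr (9.26 against 45.7 TPM, log2 fold change -2.15) and the adaptor Pik3r5 (6.78 against 25.3 TPM, log2 fold change -1.75). Against c-kit- cells, 1 was higher and 7 were lower. The shares of all genes tested that were called higher and lower were 4.83% and 9.61% in WT c-kit+ against WT c-kit- cells. For the labelled libraries they were 6.30% and 5.39% against WT c-kit+ cells, and 8.40% and 11.9% against c-kit- cells.

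Genes that end receptor signalling were lower or not called in c-kit+ cells. Of 15 listed, 14 were tested in each comparison, and 0 were higher in any of the 3. Among all genes tested, 4.83%, 6.30% and 8.40% were called higher and 9.61%, 5.39% and 11.9% lower. In WT c-kit+ against WT c-kit- cells 4 were lower, led by the receptor kinase Grk5, which fell from a mean of 536 to 46.2 TPM (log2 fold change -3.52, limma adjusted p = 1.64e-05), and the chemokine-cleaving peptidase Dpp4, from 36.9 to 4.66 TPM (log2 fold change -2.74). The G protein brakes Rgs3 (-1.81) and Rgs2 (-1.37) were the others. In the labelled libraries against WT c-kit+, 4 were lower, namely Grk5 (-1.09), Rgs3 (-1.499), Rgs1 (-1.52) and Dpp4 (-1.90), and against c-kit- cells 6 were lower. Rgs1 and Dpp4 were under 1 TPM in all 3 labelled libraries and so passed the filter there only through the WT libraries, where they were high. The list medians were -0.58, -0.41 and -0.70 in the 3 comparisons, beside -0.08, 0.12 and 0.03 over all genes tested. Over the receptors tested the medians were -1.22, -0.15 and -1.29. The values -1.22 and -1.29 are those of Ccr7, whose direction the filter fixed, since it passed only through the c-kit- libraries.

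The genes most like each receptor were taken by Pearson correlation of log2(TPM + 1) over the 9 libraries, which share 3 groups, so that similar group means alone can give a high value. Ccr2 was most like Asah1 (r = 0.999), Cd300lg (0.994) and Coro1b (0.994), and Cx3cr1 was most like Ctsc (0.999), Apba1 (0.999) and Il6st (0.997). Ccr1 was most like Tspan17 (0.995), Tep1 (0.995) and Mrpl33 (0.993), and Cxcr4 was most like Stx11 (0.991), Tns3 (0.988) and Hcls1 (0.985). Cxcr2 and Ccrl2 shared Ceacam10 (0.978 and 0.951) and Tmc6 (0.9746 and 0.946) among their 3 closest genes, with AA467197 (0.981) nearest to Cxcr2 and Gadd45g (0.967) nearest to Ccrl2. Ccr7 lay nearest to Ercc5 (0.990), Usp3 (0.981) and Gdap2 (0.980), and Cxcr3 nearest to Moap1 (0.968), Sla (0.965) and Igkv8-19 (0.964).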

How the data were processed

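Sorted mouse MLL-AF9 leukemia cells were sequenced by the authors as 9 libraries in 3 groups (TruSeq kit per the labels, although the study's text calls the assay a microarray). The deposited table gives TPM per Ensembl gene for 55536 genes; aligner, quantifier and genome build are not given in the sources used here. TPM keeps no depth, so depth is unknown and no count test was run. One column heading carries an extra digit and was read as WT c-kit+ replicate 3.

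The members and lists were chosen with earlier results of these data known. Genes that reached 1 TPM in 3 or more of the 6 libraries compared were tested with limma 3.58.1 (R 4.3.3, trended eBayes) on log2(TPM + 1), unblocked, each pair of groups on its own. Benjamini-Hochberg adjustment ran over all genes tested, and calls needed an adjusted p under 0.05 and a log2 fold change of 1 or more in size. Fold changes on this scale understate those of low genes. Folds of means are on plain TPM. Exact permutation tests used Python 3.11.15 and scipy 1.17.1. In simulated data for WT c-kit+ against WT c-kit- (13193 genes), 95 of 100 genes changed by 1.5 and 94 of 100 changed by 2 on the log2 scale were recovered, and 8 of 12993 unchanged genes were called. The changed genes were drawn from those averaging over 5 TPM in c-kit- libraries on the log scale. Lower genes and the other comparisons were therefore not covered.

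Named genes were all 9 receptors; from each list, in each comparison, the 4 largest called changes among genes averaging 5 TPM or more in a group; and the 3 genes most correlated with each receptor. Fpr1, Cxcl10, Cxcl2, Cxcl12, Lyn, Dpp4, Rgs1, Flt3 and Gm33858 fall wholly or partly outside that rule and were chosen after their values were seen, as were the ratios. The same holds for Wdr48, Gorasp1, Ttc21a, Csrnp1, Lztfl1 and Fyco1. A gene from the list of other receptors is not reported here, and was left out of the list's counts. Of the gene IDs, 55450 of 55536 were found in GENCODE M21 (GRCm38), which gave positions. Promoter windows are RefSeq (GRCm38.p6), with 8 of 9 receptors matched.

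Alternatives were a pseudocount of 0.1, no filter, a filter of 5 TPM, quantile normalization, median centring, all 9 libraries in one fit, a replicate block, no fold threshold, unadjusted p and leaving out each library.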

Additional observations from a re-analysis of the deposited data

How the results depend on the processing

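Over 20 results for single receptors and 255 alternative settings, 248 kept both the direction and the side of the thresholds. Of the rest, 0 lost a call, 2 gained one and 5 turned in sign. Calls of receptors that the filter of 5 TPM left untested were not counted as lost. They were Ccr7 in both comparisons with c-kit- cells and Cxcr2 in the labelled libraries against c-kit- cells. The sign turned for Cxcr2 in WT c-kit+ against WT c-kit-, to 0.10 with quantile normalization, to 0.11 with median centring, to 0.65 without c-kit- library 3 and to 0.10 without c-kit+ library 2, and for Ccrl2 in the same comparison, to 0.25 without c-kit- library 3. Over libraries left out in turn these values ran from -0.41 to 0.65 for Cxcr2 and from -0.44 to 0.25 for Ccrl2. The 2 gains were Cxcr4 in that comparison without c-kit- library 2 (-1.02) and Ccrl2 under the IRF7-/- label against c-kit- without c-kit- library 1 (-1.14). The counts of called receptors, 4, 3 and 5 in the 3 comparisons, became 6 in the second with no threshold on the fold change and 3 in the third with a filter of 5 TPM, which left 4 receptors to test. That filter gave 3 calls in the first, and with no filter the third had 6, Cxcr3 being added as lower (-1.17, limma adjusted p = 0.0280). Leaving out each library in turn gave 4 to 5, 3 to 3 and 5 to 6 calls. The pseudocount of 0.1 took Ccr7 from -1.22 to -2.89 and from -1.29 to -3.20.

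Among all genes, the filter of 5 TPM lowered the calls under the IRF7-/- label against WT c-kit+ from 1548 to 1015. Median centring shifted the median gene of WT c-kit+ against WT c-kit- from -0.08 to 0.07 and the calls from 641 higher and 1275 lower to 797 higher and 1027 lower. Deviations of libraries with the same replicate number had correlations of -0.07 to 0.24 over 9 pairs, 1 of them over 0.1. The best partner bore the same number in 7 of 9, so whether the numbers pair the libraries was not settled. A replicate block gave 4, 3 and 5 called receptors. TPM without counts or depth gives no counting error, which limits what can be said of Ccr7, Cxcr3 and Cmklr1.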

Other observations

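Cell type markers outside the myeloid lineage were mostly near 0. Of 5 B cell markers, 3 or 4 were under 1 TPM in every library of a group, and the sum of 26.4 to 38.1 TPM was nearly all Cd79b. T and NK cell markers summed to 0.97 to 3.35 TPM in c-kit- libraries, 136 to 194 TPM in WT c-kit+ libraries and 92.4 to 167 TPM in the libraries labelled IRF7-/-, where the c-kit+ sums were nearly all Nkg7, while Cd3e reached at most 0.22 TPM in any library. Erythroid markers summed to 3.50 to 17.6 TPM and megakaryocyte markers to 0.73 to 12.9 TPM over the 9 libraries. Of 4 endothelial markers, 3 were under 1 TPM in all libraries, and the rest was Pecam1, which leukocytes also express. Macrophage markers summed to 67.4 to 103 TPM in c-kit- libraries, 38.9 to 64.5 TPM in WT c-kit+ libraries and 134 to 187 TPM in the labelled libraries, where Vcam1 alone was at 76.9 to 107 TPM. The markers of that list did not move together. In the labelled libraries against WT c-kit+ libraries, Vcam1 (9.2, 7.42 and 12.7 TPM in WT c-kit+) and Adgre1 (52.6 to 74.0 against 23.0 to 37.9 TPM) were higher, like Ccr1. The levels of Mrc1 (0.40 to 0.47 against 0.77 to 1.22 TPM), C1qa (0.97 to 1.68 against 2.21 to 3.79 TPM) and C1qb (1.5 to 2.67 against 2.78 to 4.96 TPM) were lower, and C1qc ranged from 0.51 to 1.75 against 1.55 to 3.36 TPM. The part of macrophages in the Ccr1 values was not tested.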
